A study of Homo sapiens with 12 samples.

Results

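Radiation and interferon gamma (IFNγ) were applied to the same cells alone and together, and the question addressed here is where their joint effect on a gene departed from the product of their separate effects. The 4 groups were untreated, IFNγ alone (10 ng/ml), radiation alone (20 Gy) and the combination of the 2, with 3 RNA sequencing libraries each, so all 12 of the 12 libraries of the series entered a single fit. All were HT1080 cells, an established human fibrosarcoma line, harvested 24 h after treatment. The labels do not give the order of the treatments or say whether a group's 3 libraries were separate cultures. The p-values therefore reflect only how these libraries vary, and that variation may be technical. For each gene the interaction term is the log2 change with IFNγ after radiation less the log2 change with IFNγ without radiation, which equals the log2 effect of radiation with IFNγ minus that without it. A term of 0 means that the fold changes multiply. A term above 0 means that the combination level lay above the product, and one below 0 that it lay below.

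IFNγ binds a receptor that signals through the kinases JAK1 and JAK2 to the nucleus, where it switches on the transcription factor IRF1 and, through it, genes of antigen presentation and antiviral defence. Promoters of these genes carry short elements named ISRE and GAS, which transcription factors of the response bind. Ionising radiation breaks DNA, and the damage activates p53, which raises the cell cycle inhibitor CDKN1A and other stress genes. Irradiated cells can also make interferons and raise interferon-stimulated genes. Both treatments are known to lower SLC7A11, the cystine transporter subunit that feeds glutathione synthesis and protects cells from ferroptosis, a death driven by oxidised lipids.

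Of 12160 genes tested, 289 (2.38%) had an interaction term that passed an adjusted p of 0.05 in edgeR's quasi-likelihood test, and these are the called genes below. The term was above 0 for 168 genes (1.38%) and below 0 for 121 (0.995%). Most departures were small. The median absolute term of the called genes was 0.32 and 248 of them departed from the product by less than 1.5-fold. Departures of 2-fold or more were called in 4 genes above the product and 5 below it (0.0329% and 0.0411% of genes tested). Those above were the clock gene PER1 (term 1.05) and, named after their values were seen because they are few and lie under the level set for naming, JUP (1.28), DMBT1 (1.21) and PDF (1.16), the last of which lost its call without radiation replicate 2 (adjusted p = 0.053, edgeR). Those below were APOL3 (-1.52), TNFRSF14 (-1.37), SCN9A (-1.27), TAP1 (-1.10) and TRIM22 (-1.03). Of these, SCN9A and TAP1 lost their calls without radiation replicate 2 (adjusted p = 0.0636 and 0.0799, edgeR). For comparison, 3544 genes (29.1%) changed with IFNγ in unirradiated cells and 6816 (56.1%) with radiation alone, and 7380 (60.7%) with radiation in the presence of IFNγ. Over all genes tested the median term was -0.00145.

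The number of called genes depended on single libraries. Without radiation replicate 2, 161 genes (1.31% of 12250 tested) were called, 91 above the product (0.743%) and 70 below it (0.571%). Of these 155 were among the 289, and without combination replicate 2 there were 179. All 289 genes kept their direction in both fits. Radiation replicate 2 differed from its group in traces of interferon genes. Over 12 genes that had at most 10 counts summed over the untreated libraries and a mean of at least 30 counts with IFNγ, such as IDO1, GBP4 and HLA-DRB1, it held 56 counts, against 26 and 20 in radiation replicates 1 and 3, 11 to 17 in untreated and 4605 to 6448 in IFNγ libraries. That is 1.03% of the IFNγ mean. Single genes differed in this. In radiation replicates 1 to 3, IDO1 had 1, 8 and 1 counts, GBP4 5, 7 and 0, and HLA-DRB1 0, 6 and 4. CTSS, another of the 12, had 10, 15 and 8, against 5, 3 and 2 in untreated libraries. The part of radiation replicate 2 in the interaction terms was not tested beyond leaving the library out.

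The 2 directions differed in what IFNγ alone did. Of the 121 genes below the product, 89 were higher with IFNγ in unirradiated cells (15.0% of all genes tested were), 8 were lower and 24 were not called. Of the 168 genes above it, 116 were lower with IFNγ (14.1% of all genes tested were), 14 were higher and 38 were not called. The term is computed from the same untreated and IFNγ libraries as this effect, so these counts describe the called genes and are no independent evidence. Of the 89 genes, radiation on top of IFNγ raised 26 (30.3% of all genes tested), lowered 38 (30.4% of all) and left 25 without a call. Of the 116, radiation on top of IFNγ raised 103, lowered 4 and left 9 without a call. The scatter of effects shows both sets on either side of the diagonal.

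**Figure D1:**
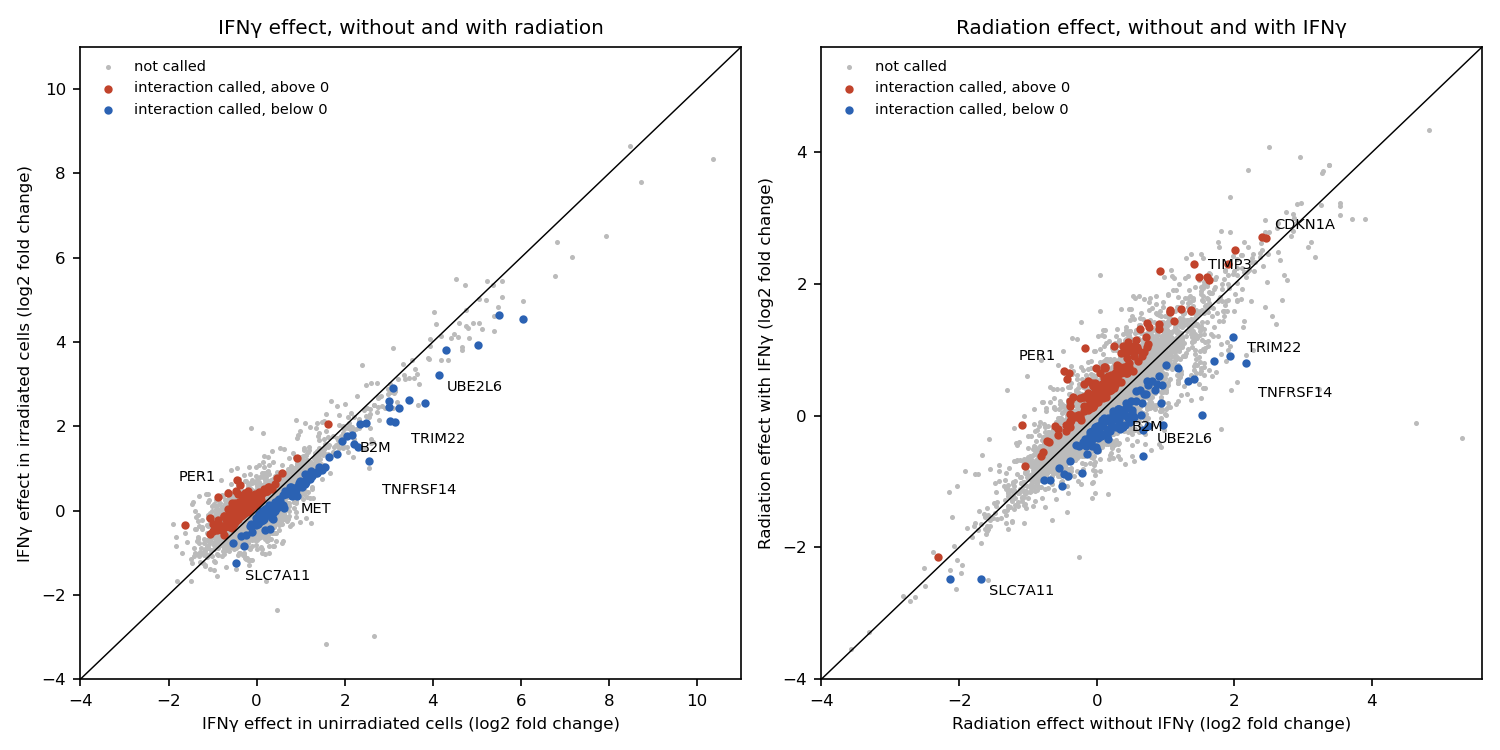
Log2 effect of IFNγ in irradiated against unirradiated cells (left) and of radiation with against without IFNγ (right) for 12111 genes with more than 3 counts summed in every group. Each point is a gene, the vertical distance from the diagonal is its interaction term, red points are the 168 genes called above 0 and blue points the 121 called below 0. On the left, most blue points lie right of 0 and most red points left of 0.

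The promoters were searched for short elements, among them the ISRE, which IRF proteins bind. Most called genes with a promoter entry had no ISRE match, including the interferon genes PSMB8, UBE2L6 and IRF9. RefSeq's promoters on GRCh38.p14 matched 9585 of the 12160 tested genes, and the 250 bases before the first listed start were searched on both strands. The ISRE letters (GAAA, any 2 bases, GAAA) were found in 9 of 95 genes called below the product (9.47%), in 3 of 127 called above it (2.36%) and in 239 of all 9585 (2.49%). The GAS letters TTCNNNGAA were in 7.37%, 3.94% and 5.61%. IRF9 and TLR3 were among the genes below the product with a GAS match. A match is a description of letters and not a measured binding site. Of the 9 genes below the product, 4 are printed in the direction of transcription. B2M, TAP1 and PSME2 are described further below, and TRIM26 was chosen for its pair of matches. The matching letters are in capitals (TTTC, any 2 bases, TTTC is the ISRE read on the other strand). The 2 matches overlap in B2M, TAP1 and TRIM26.
B2M (chr15:44711353-44711408, plus strand): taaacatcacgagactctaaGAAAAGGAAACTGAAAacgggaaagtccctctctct
TAP1 (chr6:32853803-32853858, minus strand): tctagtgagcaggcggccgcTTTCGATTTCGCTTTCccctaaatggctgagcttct
PSME2 (chr14:24146611-24146658, minus strand): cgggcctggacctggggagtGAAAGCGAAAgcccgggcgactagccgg
TRIM26 (chr6:30213565-30213620, minus strand): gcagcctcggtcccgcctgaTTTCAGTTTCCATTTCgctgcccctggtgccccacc

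These windows begin 164, 154, 48 and 214 bases before the listed start. The other 5 genes were EDNRA, MVP, NMI, TAF13 and TRIM5, and the 3 above the product were PLSCR1, SAMD9 and TNFSF9. TRIM26, an E3 ubiquitin ligase gene shown for its pair of matches and so named after its values were seen, had a term of -0.40. The other motifs searched were the amino acid response element TGATGNAA (3.16% of genes below the product, 0 of 127 above it and 1.45% of all), the E2F letters TTTNNCGC (8.42%, 4.72% and 9.22%), the antioxidant response element TGANNNNGC (35.8%, 37.8% and 35.4%) and CCAAT (30.5%, 43.3% and 35.2%). SLC7A11, TRIM22 and APOL3 had no entry.

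Interferon genes were described by 5 fixed lists, which cover MHC class I and class II antigen presentation, IFNγ signalling, guanylate binding proteins and IFNγ effectors, and antiviral interferon-stimulated genes. Of their 119 tested members, 19 were called below the product (15.97%, against 0.995% of all genes) and 2 above it (1.68%, against 1.38%). The remaining members were not called, and 94 of the 119 terms were below 0. Without radiation replicate 2 the counts were 15 and 1, and over the 12 fits that each left out 1 library the lower count ran from 15 to 26. Among the 109 members with more than 3 counts in each group the median term was -0.17, against -0.00145 over all genes. The median radiation effect on them was 0.29 (log2) without IFNγ and 0.04 with it, while the median IFNγ effect was 2.55 without radiation and 2.39 with it.

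B2M encodes the light chain of MHC class I. Its level was 404, 411 and 426 CPM (counts scaled to a common library total) in untreated, 1906, 1843 and 1796 with IFNγ, 538, 549.8 and 527 with radiation, and 1844, 1865 and 1900.4 with both. The radiation libraries all lay above the untreated ones, whereas the libraries with both lay within the range of those with IFNγ alone. The mean with both, 1870.1 ± 28.2 CPM (SD, n = 3), was 77.7% of the 2407 CPM that the product of the 2 effects gives. The term was -0.36 ± 0.0404 (log2, SE; adjusted p = 5.42e-09, edgeR) and -0.35 without radiation replicate 2.

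Some other genes of the class I pathway were also called. PSMB8, a catalytic subunit of the immunoproteasome that cuts proteins into peptides, measured 23.1, 23.0 and 21.6 CPM in untreated, 189, 181 and 173 with IFNγ, 29.2, 30.5 and 29.9 with radiation, and 166, 157 and 168 with both. Radiation thus raised it without IFNγ, and each library with both lay below each library with IFNγ alone. Its term was -0.55 ± 0.0836 (adjusted p = 1.36e-05, edgeR). Of 22 tested genes of MHC class I presentation, 6 were called, all below the product (27.3%, against 0.995% of all genes), and 16 were not called. Without radiation replicate 2 the count was 4, and with 1 library left out it ran from 4 to 7. The list median was -0.15. The called members differed in what radiation did on top of IFNγ, which left B2M and TAP1 without a call, lowered PSMB8 (-0.14, log2) and raised the proteasome activator subunits PSME1 (0.09) and PSME2 (0.11) and the peptidase ERAP2 (0.18). TAP1, which pumps peptides into the endoplasmic reticulum, had the lowest term of these, -1.10 ± 0.204, with means of 16.4 CPM in untreated, 536 with IFNγ, 31.9 with radiation and 484 with both. That call did not hold without radiation replicate 2 (adjusted p = 0.0799, edgeR), nor without any 1 of the untreated libraries, radiation replicates 1 or 3 or combination replicate 2, where the adjusted p reached 0.11 at most. PSME1 also lost its call without radiation replicate 2 (adjusted p = 0.0531, edgeR).

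Called regulators and effectors of the interferon response included UBE2L6 and IRF9. UBE2L6, the conjugating enzyme for the ubiquitin-like protein ISG15, had 17.4, 17.5 and 14.6 CPM in untreated, 307, 283 and 280.4 with IFNγ, 28.0, 28.7 and 26.4 with radiation, and 258, 250.2 and 269 with both. The libraries with both lay below those with IFNγ alone, at 53.1% of the product on average, and the term was -0.91 ± 0.0918 (adjusted p = 4.45e-10, edgeR). IRF9, a transcription factor of the interferon response, had 7.69, 7.15 and 8.32 CPM in untreated, 65.2, 59.8 and 63.0 with IFNγ, 12.3, 12.5 and 12.2 with radiation, and 49.8, 53.2 and 58.1 with both. Again radiation alone raised the gene and the groups with IFNγ did not overlap. The term of IRF9 was -0.89 ± 0.133.

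For APOL3, an interferon-induced apolipoprotein L, the counts were low in the absence of IFNγ. It measured 1.13, 0.847 and 0.609 CPM in untreated, 64.5, 56.9 and 54.0 with IFNγ, 2.62, 2.91 and 2.04 with radiation, and 59.1, 56.8 and 60.2 with both. Radiation alone raised it with no overlap with untreated cells, whereas the 2 groups with IFNγ overlapped. Its term of -1.52 ± 0.33 is the lowest among the named genes that were called, and it was -1.40 without radiation replicate 2. TRIM21, an antibody receptor in the cytosol and E3 ubiquitin ligase, averaged 89.4 CPM with IFNγ and 89.6 with both, and RFX5, which binds MHC class II promoters, 112 and 113. Their terms were -0.65 and -0.39. DTX3L, a ubiquitin ligase that works with PARP9, fell from 525 ± 16.9 CPM with IFNγ to 446 ± 25 with both (term -0.42), although radiation alone raised it from 64.9 to 74.1 CPM. PARP9 (term -0.48) lost its call without untreated replicate 1 (adjusted p = 0.115, edgeR), as did the DNA sensor IFI16 (term -0.36, adjusted p = 0.139).

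**Figure D2:**
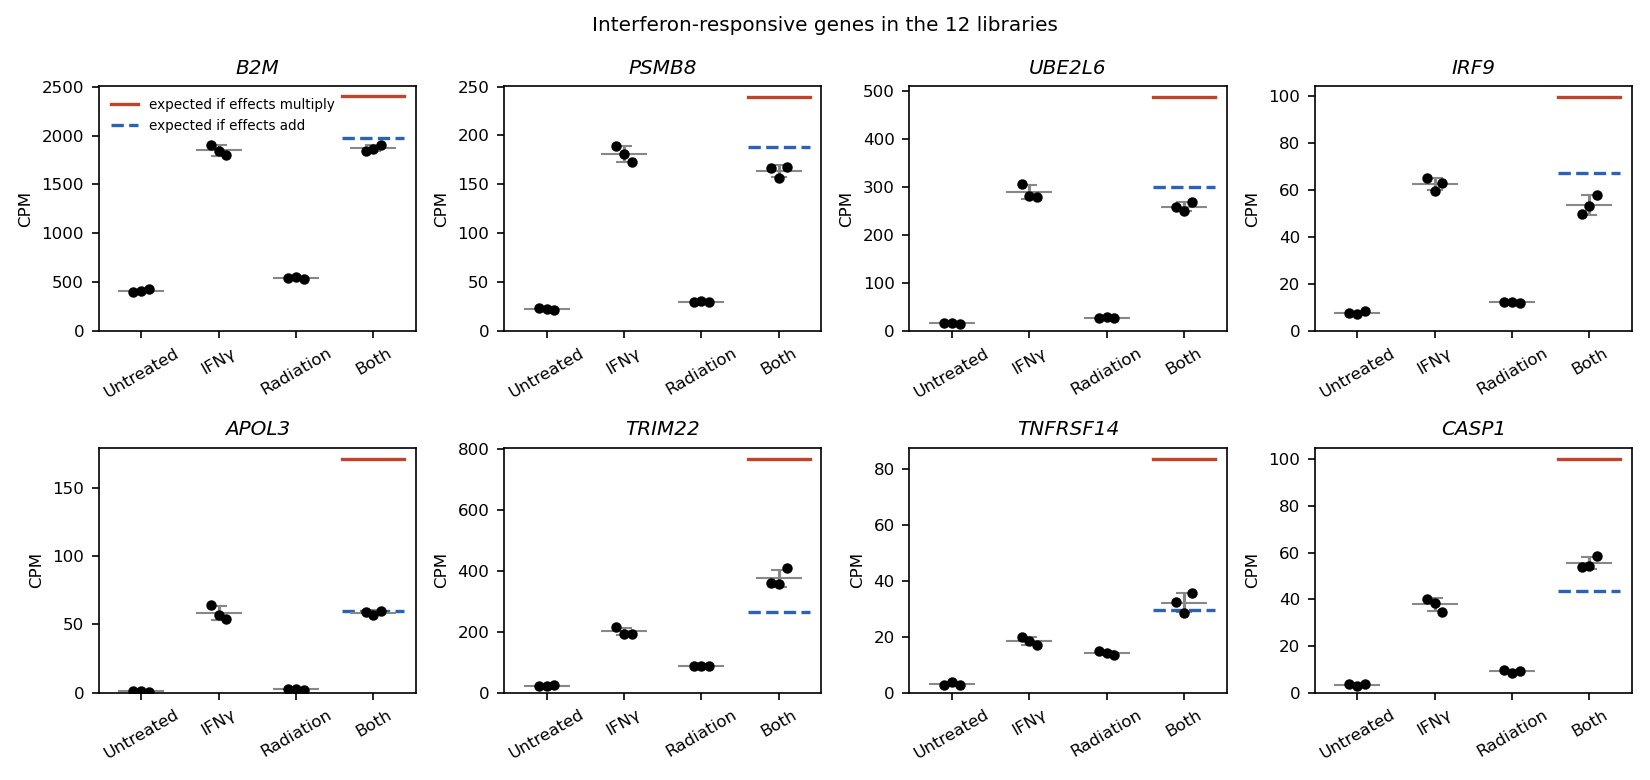
Levels (CPM) of 8 interferon-responsive genes in the 12 libraries; black points are libraries, grey bars mean ± SD of 3, the red line the level expected in cells given both if the effects multiply and the dashed blue line if they add. B2M, PSMB8, UBE2L6, IRF9 and APOL3 reached with both treatments about the level of IFNγ alone or less, whereas TRIM22, TNFRSF14 and CASP1 rose above it but stayed under the red line.

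A second pattern was found in genes that each treatment raised and that were highest in cells given both, yet below the product. TRIM22, an antiviral E3 ligase that p53 also induces, had 21.7, 22.6 and 24.3 CPM in untreated, 215, 193 and 192 with IFNγ, 88.0, 87.1 and 87.3 with radiation, and 359, 357 and 408 with both. No 2 groups overlapped. The mean with both, 374 ± 28.7 CPM, was 48.9% of the product of 766 CPM but above the 265 CPM given by adding the 2 increases. The term was -1.03 ± 0.0883 (adjusted p = 7.24e-10, edgeR). Whether such a gene falls short or overshoots thus depends on the scale.

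TNFRSF14, the HVEM receptor that engages BTLA and LIGHT on lymphocytes, had 2.81, 3.86 and 2.74 CPM in untreated, 20.0, 18.6 and 17.1 with IFNγ, 15.0, 14.2 and 13.3 with radiation, and 32.3, 28.6 and 35.6 with both. The mean with both was 38.4% of the product and the term -1.37 ± 0.189 (adjusted p = 4.38e-07, edgeR). CASP1, the inflammasome caspase, rose from 3.41 CPM to 37.8 with IFNγ, 9.05 with radiation and 55.6 with both (term -0.85). C1S, a complement protease, rose from 2.72 to 124, 8.93 and 221 CPM (term -0.87). TRANK1 (term -0.78) and the transcription factor STAT3 (term -0.48) had the same order of groups, STAT3 with means of 89.3, 193, 172 and 267 CPM. TLR3, a sensor of double-stranded RNA, had a term of -0.80 and lost its call without radiation replicate 1 or 2, untreated replicate 3 or IFNγ replicate 1, with an adjusted p of up to 0.102 (edgeR).

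Some interferon genes went the other way or could not be judged. PLSCR1, an antiviral scramblase, had 49.5, 50.4 and 48.5 CPM in untreated, 164, 145 and 145 with IFNγ, 31.2, 33.0 and 33.5 with radiation, and 127, 131 and 150.2 with both. Radiation lowered it in both settings, but less in the presence of IFNγ, and the term was 0.45 ± 0.088 (adjusted p = 0.00169, edgeR). On the linear scale its mean of 136 CPM was within the error of the 135 CPM given by adding the effects. SAMD9 (term 0.33) was called above the product but lost the call in 8 of the 12 fits without 1 library and with DESeq2.

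IRF1 (term -0.47, 95% interval -1.22 to 0.29), the class II transactivator CIITA (-0.04, -0.52 to 0.44), JAK2 (0.15, -0.22 to 0.53), JAK1 (-0.17, -0.27 to -0.07) and IFNGR1 (0.26, 0.05 to 0.47) were not called. The intervals are for single genes, so one that leaves out 0 need not pass the adjustment over 12160 tests. CD274, which encodes the checkpoint ligand PD-L1, was not called either, at -0.04 (-0.26 to 0.18). IDO1, CXCL9 and CXCL10 had 0 counts in the untreated group and allow no estimate of the term. GBP5 had 2, 6 and 13 counts in untreated and 10, 59 and 3 in radiation libraries, and its interval ran from -6.43 to 2.40.

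The list of 17 tested MHC class II genes had a median term of -0.59, which was -0.25 without radiation replicate 2, and 4 of its members had 3 counts or fewer in a group. RFX5 was its only called member (5.88% below the product, against 0.995% of all genes). IFNγ signalling had 5 of 22 members below the product (22.7%), guanylate binding proteins and effectors 3 of 17 (17.6%) and the antiviral list 4 of 41 (9.76%). The share over all genes was 0.995%. The antiviral list also had 2 above it (4.88%, against 1.38% of all genes). With 1 library left out, the counts below the product ran from 3 to 6, from 2 to 4 and from 4 to 9 in the same order of lists. Of 14 tested nucleic acid sensing genes 2 were called, both below the product (14.3%, against 0.995% of all genes). They were TLR3 and the inflammasome sensor NLRP3, and neither was called without radiation replicate 2. Of 16 tested checkpoint, adhesion and T cell contact genes, 3 were called below the product (18.75%, against 0.995% of all genes). In the same list 1 was called above it (6.25%, against 1.38%), and without radiation replicate 2 each count was 1.

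**Figure D3:**
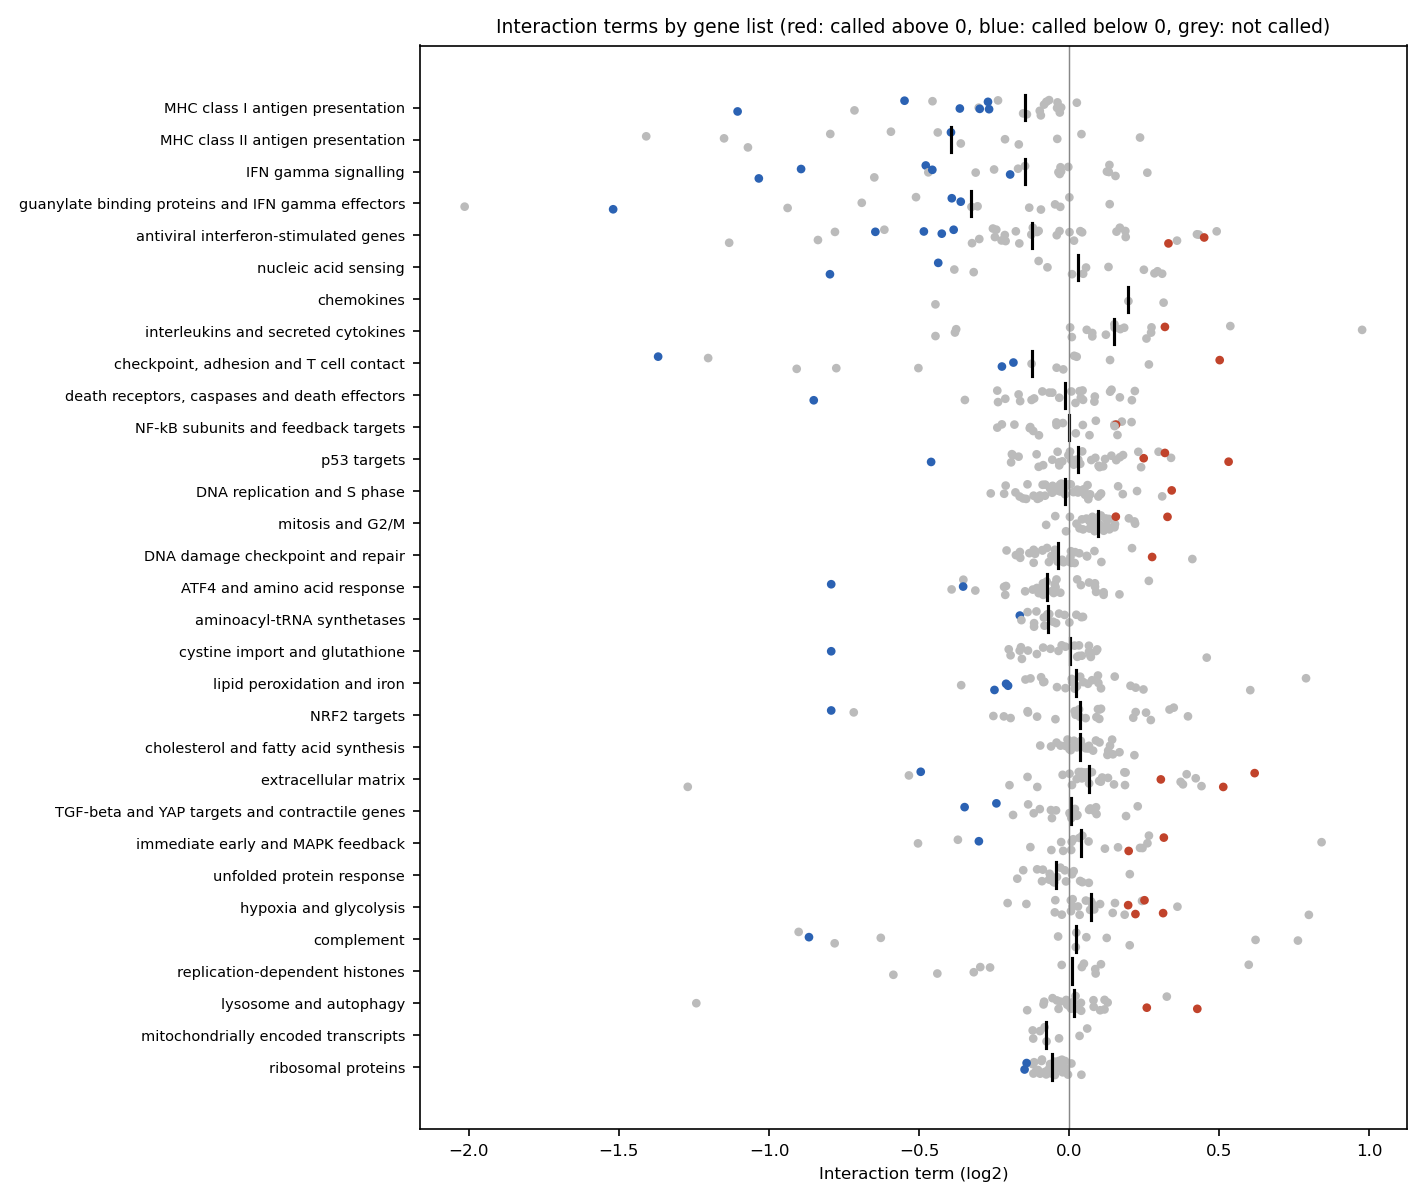
Interaction term (log2) of the members of each fixed gene list with more than 3 counts summed in every group; each point is a gene, red and blue points are called above and below 0, grey points are not called, and black bars mark the median of the plotted members. Blue points gather in the interferon and antigen presentation lists at the top and also occur in other lists, such as checkpoint, adhesion and T cell contact. Most lists centre near 0.

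The cystine transporter SLC7A11 was lowered by each treatment and fell below the product when they were combined. It had 96.8, 114 and 114 CPM in untreated, 71.4, 82.4 and 81.1 with IFNγ, 31.3, 35.2 and 34.3 with radiation, and 12.5, 15.1 and 14.6 with both. No 2 groups overlapped. The IFNγ effect was -0.46 in unirradiated and -1.26 in irradiated cells (log2), and the mean with both was 57.7% of the product of 24.4 CPM. The term was -0.79 ± 0.115 (adjusted p = 2.29e-05, edgeR) and -0.76 without radiation replicate 2. On the linear scale no departure was established, because subtracting both decreases from the untreated level would leave 3.85 CPM, and the measured level differed from that by 10.2 ± 6.78 CPM (SE).

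Genes that work with SLC7A11 were not called. SLC3A2, the heavy chain of the same transporter, averaged 152, 139.7, 62.2 and 54.1 CPM, with a term of -0.09 (95% interval -0.22 to 0.05). The transcription factor ATF4, which activates SLC7A11, had a term of -0.05 (-0.15 to 0.04) and its target CHAC1, a glutathione-degrading enzyme, 0.03 (-0.94 to 0.99). GPX4, which repairs oxidised lipids, had 0.07 (-0.07 to 0.21) and ACSL4, which makes the lipids that oxidise, -0.13 (-0.26 to -0.00082). A difference between the term of SLC7A11 and theirs was not tested. Of 26 tested genes of cystine import and glutathione only SLC7A11 was called (3.85%, against 0.995% of all genes below the product). ASNS, an asparagine synthetase under ATF4, was the other called member of the 33 amino acid response genes (6.06% below the product, against 0.995% of all genes). The means of ASNS were 92.4, 109.7, 21.1 and 19.6 CPM and its term was -0.35. It lost the call without radiation replicate 1 or 3 or combination replicate 3, with an adjusted p of up to 0.0686 (edgeR), and with DESeq2 (adjusted p = 0.0866).

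In the iron and lipid peroxidation list 3 of 28 genes were called, all below the product (10.7%, against 0.995% of all genes). TFRC, the transferrin receptor that imports iron, had 1172, 1188 and 1139 CPM in untreated, 1139, 1175 and 1149 with IFNγ, 787, 795 and 814 with radiation, and 669.7, 676 and 649 with both. IFNγ left it without a call in unirradiated cells and lowered it in irradiated ones, with no overlap between the last 2 groups. The term was -0.25 ± 0.0391 (adjusted p = 2.58e-05, edgeR). ACO1 and IREB2, which encode the iron regulatory proteins, had terms of -0.20 and -0.21 and lost their calls without radiation replicate 2, which left 1 of the 28. They also lost them in most of the other fits without 1 library.

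F3, the tissue factor that starts coagulation, was the other named gene below the product that each treatment alone lowered. It had 34.4, 35.8 and 34.1 CPM in untreated, 29.6, 27.0 and 29.7 with IFNγ, 24.3, 22.8 and 26.6 with radiation, and 12.9, 12.8 and 15.2 with both. The cells given both were lowest, without overlap, and the term was -0.57 ± 0.116 (adjusted p = 0.00147, edgeR). The mean of 13.6 CPM lay below both the product of 20.3 and the sum of 18.6 CPM.

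MET, RND3 and PDP1 were raised by each treatment alone but not further by both. MET, which encodes the hepatocyte growth factor receptor, had the smallest adjusted p of all genes (2.42e-11, edgeR). Its levels were 452, 468 and 452 CPM in untreated, 802, 796 and 790.0 with IFNγ, 563, 537 and 561 with radiation, and 695, 691 and 724 with both. Radiation raised MET without IFNγ and lowered it with IFNγ, and the term was -0.45 ± 0.0413. RND3, which relaxes the actin cytoskeleton, averaged 108, 278, 155 and 286 CPM (term -0.48), and PDP1, a phosphatase that activates pyruvate dehydrogenase, 113, 212, 164 and 209 CPM (term -0.56). NSUN6, an RNA methyltransferase, had a term of -0.58 and lost its call without IFNγ replicate 3 (adjusted p = 0.0632, edgeR) and with DESeq2 (adjusted p = 0.102).

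**Figure D4:**
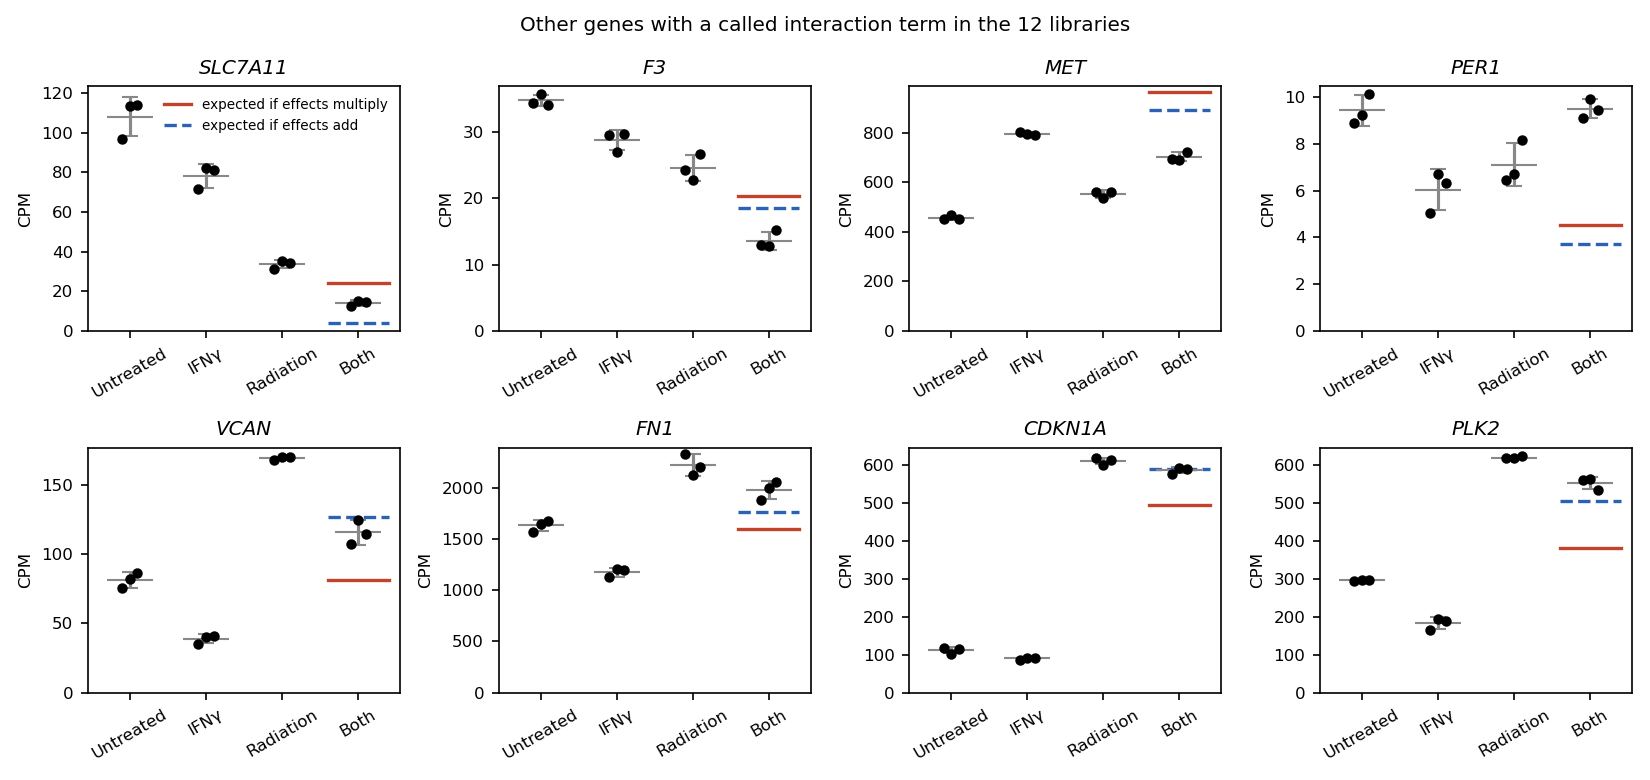
Levels (CPM) of 8 other genes with a called interaction term in the 12 libraries; symbols as in the plot of interferon-responsive genes. SLC7A11, F3 and MET lie below the red line of the product with both treatments, and PER1, VCAN, FN1, CDKN1A and PLK2 above it, with CDKN1A near the dashed line of the sum.

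Above the product, the largest group were genes that IFNγ lowered in unirradiated cells and lowered less, or no longer, after radiation. PLK2, a p53-induced kinase, had 293, 297 and 297 CPM in untreated, 164, 193 and 189.8 with IFNγ, 618, 618 and 623 with radiation, and 561, 562 and 534 with both. IFNγ lowered it by 0.70 (log2) without radiation and by 0.17 with it. The term was 0.53 ± 0.0517 (adjusted p = 7.24e-10, edgeR). CDKN1A, the p21 inhibitor of cyclin-dependent kinases, had 118, 103 and 115 CPM in untreated, 86.7, 92.3 and 92.0 with IFNγ, 619, 602 and 615 with radiation, and 578, 594 and 592 with both. IFNγ lowered CDKN1A in unirradiated cells but its effect was not called in irradiated cells, and the term was 0.25 ± 0.0547. The mean of 588 CPM with both was 119% of the product and matched the sum of 591 CPM within its error, so the departure of CDKN1A is one of fold changes only.

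The 39 tested p53 targets had a median radiation effect of 1.29 (log2) without and 1.39 with IFNγ. Of these 3 were called above the product (7.69%, against 1.38% of all genes), PLK2, CDKN1A and GDF15, a stress cytokine (term 0.32), and 1 below it (2.56%, against 0.995%), SUSD6, whose call was lost without radiation replicate 2 and 7 others. MDM2, which marks p53 for degradation, rose from 310.5 to 1371 CPM with radiation and from 323 to 1469 CPM in the presence of IFNγ, with a term of 0.04 (95% interval -0.05 to 0.13).

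Of 38 tested extracellular matrix genes, 3 were called above the product (7.89%, against 1.38% of all genes) and 1 below it (2.63%, against 0.995%). The fibronectin gene FN1 had 1572, 1651 and 1673 CPM in untreated, 1127, 1204 and 1196 with IFNγ, 2333, 2127 and 2206 with radiation, and 1882, 1997 and 2055 with both. IFNγ lowered it less after radiation, and the term was 0.31 ± 0.0478 (adjusted p = 0.000197, edgeR). VCAN, the proteoglycan versican, had 75.3, 82.1 and 86.3 CPM in untreated, 35.1, 40.2 and 41.1 with IFNγ, 168, 169.8 and 169.7 with radiation, and 107, 125 and 115 with both. Its term was 0.51 ± 0.0783, while its mean of 116 CPM differed from the sum of 127 CPM by -11.2 ± 6.28 CPM (SE). TIMP3, an inhibitor of matrix proteases, went from 19.4 to 12.9 CPM with IFNγ alone but measured 54.5 with radiation and 55.4 with both (term 0.62). Tenascin C, TNC, was the member below the product (term -0.49), with 78.9, 282, 59.0 and 149 CPM, and lost its call without untreated replicate 1 or 3, IFNγ replicate 3 or combination replicate 2 (adjusted p up to 0.188, edgeR).

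Other genes with the same loss of the IFNγ effect were ADGRG1, an adhesion receptor (term 0.62; 35.9, 21.4, 39.0 and 35.7 CPM), NLGN2, a synaptic adhesion protein (0.54; 56.5, 39.4, 75.8 and 76.8 CPM), BTBD11 (0.60) and OSBP2, an oxysterol-binding protein (0.67; 25.9, 13.03, 23.6 and 18.9 CPM). IFNγ lowered each of these 4 in unirradiated cells. In irradiated cells it lowered OSBP2 less and had no called effect on the other 3.

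In 21 genes above the product, IFNγ changed the level in opposite directions, lower without and higher with radiation. PER1, a repressor of the circadian clock, had 8.91, 9.22 and 10.2 CPM in untreated, 5.05, 6.72 and 6.32 with IFNγ, 6.45, 6.73 and 8.16 with radiation, and 9.12, 9.92 and 9.46 with both. Each treatment alone lowered it, and the libraries with both lay within the untreated range. The term was 1.05 ± 0.189 (adjusted p = 0.000255, edgeR), from 186 to 301 counts summed over the 3 libraries of a group. SMOX, which oxidises spermine, had 54.3, 55.5 and 52.0 CPM in untreated, 45.2, 44.5 and 43.3 with IFNγ, 72.1, 71.7 and 76.4 with radiation, and 90.8, 88.6 and 93.8 with both. IFNγ lowered SMOX in unirradiated cells and raised it in irradiated ones, without overlap in either pair, and the term was 0.59 ± 0.0743 (adjusted p = 1.4e-07, edgeR).

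Further genes with this change of sign were LMNA, the nuclear lamina protein (term 0.28; 634, 579.9, 638 and 708 CPM), WFS1 (0.60), DENND3 (0.61), DUSP4, a MAP kinase phosphatase (0.32), the lysosomal protease CTSD (0.26), GDF15 and TNFSF9, the ligand of the T cell receptor 4-1BB (0.50; 15.8, 12.7, 64.1 and 72.8 CPM). The opposite change of sign, higher with IFNγ without and lower with radiation, was seen in 4 genes below the product, TAF7, ASCC3, NOC3L and EIF2S3, named after their values were seen. Their terms ran from -0.30 to -0.21, and NOC3L was not called without radiation replicate 2.

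A last set was raised most in cells given both, above the product. PCNA, the clamp of DNA polymerases and a p53 target, had 216, 206 and 215 CPM in untreated, 243, 235 and 237 with IFNγ, 297, 286 and 298 with radiation, and 420.5, 417 and 415 with both. The libraries with both stood above all others, also above the sum of 319.5 CPM, and the term was 0.34 ± 0.0467 (adjusted p = 1.33e-06, edgeR). TGFA, a ligand of the EGF receptor, averaged 77.0, 71.6, 288 and 352 CPM (term 0.39). CDC25B, a phosphatase that drives entry into mitosis, differed from untreated neither with IFNγ nor with radiation by a called amount, and rose from 151 ± 4.25 CPM with radiation to 189 ± 2.65 with both (term 0.33). NDRG1, a stress-responsive gene, averaged 296, 348, 270.3 and 378 CPM (term 0.25). It was 1 of 4 genes of 27 in the hypoxia and glycolysis list called above the product (14.8%, against 1.38% of all genes), of which NDRG1 alone was called without radiation replicate 2.

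Of 52 DNA replication genes only PCNA was called (1.92%, against 1.38% of all genes above the product), and of 37 mitosis genes CDC25B and TOP2A (5.41%), the second of which lost the call without radiation replicate 1 or 2. The mitosis list had 34 of 37 terms above 0, with a median of 0.10, against -0.00145 over all genes. Such a lean was not particular to mitosis: of 40 ribosomal protein genes 38 had terms below 0, with a median of -0.06. MKI67, a proliferation marker, had a term of 0.04 (95% interval -0.04 to 0.12) and cyclin B1, CCNB1, 0.15 (0.06 to 0.25), which did not pass the adjustment (adjusted p = 0.0716, edgeR). No member was called by edgeR or DESeq2 among 31 genes of cholesterol and fatty acid synthesis (4 higher at an unadjusted p under 0.05), 20 of the unfolded protein response (1 lower), 12 replication-dependent histones (0) or 8 mitochondrially encoded transcripts (4 lower).

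**Figure D5:**
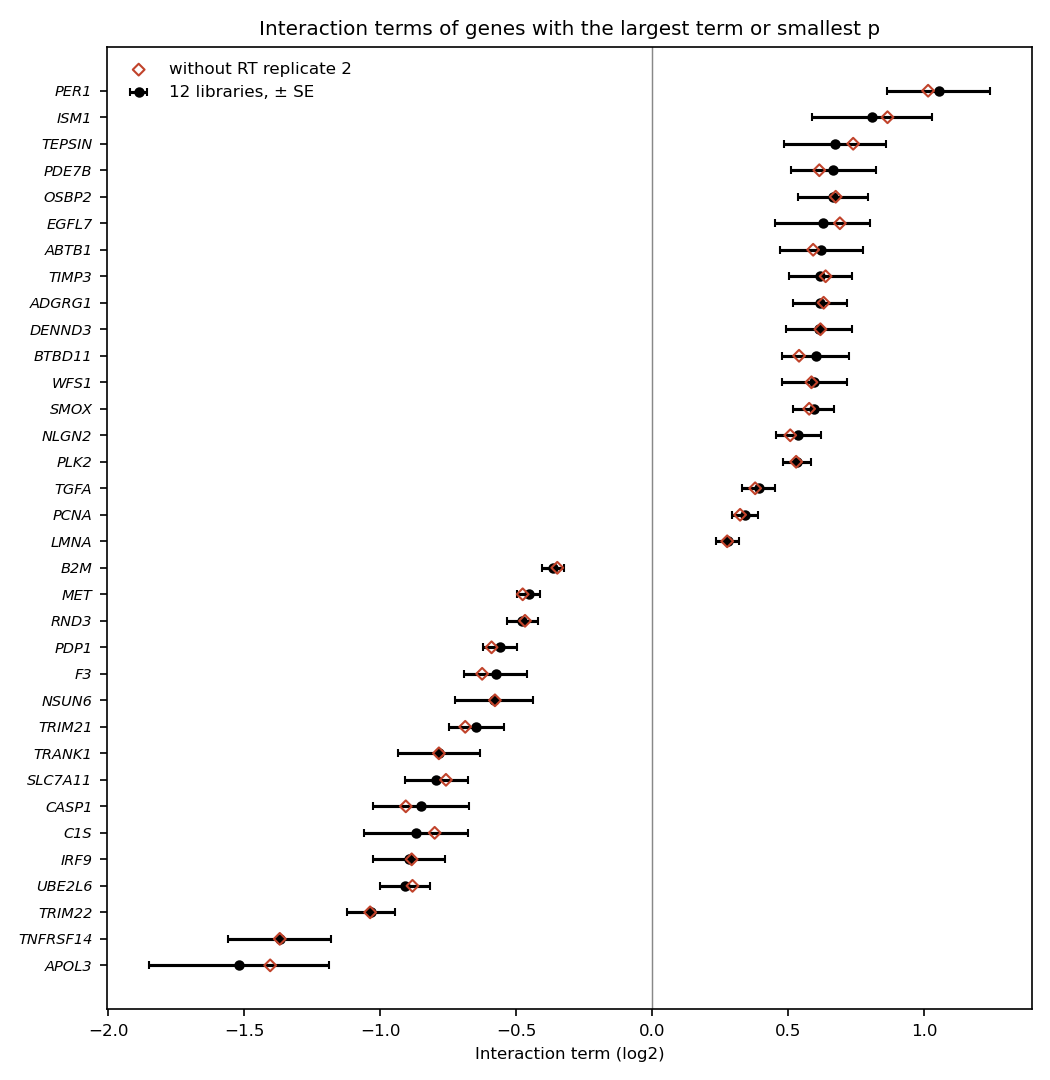
Interaction term (log2) of the genes with the largest terms or the smallest p in each direction; black points and bars are the estimate ± SE from 12 libraries, red diamonds the estimate without radiation replicate 2. Genes are shown only if they were also called in the same direction without radiation replicate 2. The side of 0 on which each diamond lies was thus fixed by that choice. Terms from 12 libraries run from PER1 at 1.05 to APOL3 at -1.52.

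A further 6 genes had terms as large but lost the call without radiation replicate 2. Above the product these were FAAP24 (0.98), HHEX (0.94) and SEMA3B (0.89), and below it SCN9A (-1.27), TAP1 and TLR3. Their terms without that library were 0.90, 0.95, 0.90, -1.35, -1.08 and -0.72, so the estimates moved little. Another 4 of the genes with the largest terms held without that library but not with DESeq2 or without some other single library: ISM1 (0.81), TEPSIN (0.67), EGFL7 (0.63) and ABTB1 (0.62), with an adjusted p of up to 0.161 (edgeR, EGFL7 without IFNγ replicate 2) and up to 0.221 with DESeq2. PDE7B (0.67) missed the call only with DESeq2 (adjusted p = 0.0533).

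Total counts per library ran from 9675126 to 11010656, so depth hardly differed between groups. The mesenchymal markers VIM (4170 to 5560 CPM), SPARC and CD44 were high in all libraries, as the label of a fibrosarcoma line has it, although COL1A1 stayed below 10 CPM and THY1 and LUM were at or near 0. Keratins KRT8 and KRT18 were present, while EPCAM and CDH1 were at or below 0.201 CPM. Of 12 immune cell markers, FCGR3A had 0 counts, PTPRC reached 2.31 CPM at most, CD3E 0.0989 and CD14 0.702, and only CD68 was high (115 to 195 CPM). In such bulk samples, fewer cells of a kind and less RNA per cell cannot be told apart.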

How the data were processed

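RNA was sequenced from 12 HT1080 libraries in 4 groups of 3. The authors deposited 1 table of raw counts, whole numbers per gene with no normalization. Per the labels' protocols, ribosomal RNA was removed and stranded total RNA libraries were made, while the series' design text names an mRNA protocol. The build was hg19 (GRCh37) and the tools were TopHat2 2.0.13, Cuffdiff 2.2.1, Cufflinks and FastQC 0.11.3, per the submitters' processing notes. Which program counted reads, with what strand option and gene models, is not given in the sources used here, and counts of overlapping, antisense and near-identical genes are uncertain. The header over the first 4 columns is shifted by 1 place, and columns were read by content. The 27 gene symbols that appear as dates were kept under their identifiers.

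Genes passing filterByExpr (12160 of 19293) were fitted with edgeR 4.0.16 in R 4.3.3 (TMM scaling, robust quasi-likelihood, 4 group means, common biological coefficient of variation 2.71%), with Benjamini-Hochberg adjustment over all of them and calls at 0.05. Standard errors are Wald errors from the fitted weights and the moderated dispersion, and intervals are 95%. Levels are CPM on TMM-scaled totals. The expected levels are IFNγ × radiation / untreated (product) and IFNγ + radiation - untreated (sum). The median tested gene had 324 counts per library. Replicate pairs differed by a chi-square per degree of freedom of 1.14 to 2.75. Each library was kept as its own replicate, although these values cannot show whether a group's 3 libraries were separate cultures. The fit was tested on simulated counts. Alternatives were library totals, RLE scaling, DESeq2 1.42.0, 2 other filters, a replicate block and each library left out, 18 in all. Genes are not compared in level with each other.

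Named genes are the 12 with the largest term in each direction and the 6 with the smallest p (mean log2 CPM of at least 2, more than 3 counts per group, called without radiation replicate 2), the 6 largest that lose the call without it, up to 3 called members per list and direction, and 24 fixed genes. The members, this rule and the 36 gene lists were chosen with earlier results of these data known. Of these, 1 fixed gene is not reported here. Promoter sequences are RefSeq's on GRCh38.p14, matched by Ensembl identifier and, where that gave none, by symbol.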

Additional observations from a re-analysis of the deposited data

Results flagged for a closer look

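Each result below is a difference between groups: the log2 change with IFNγ differed between irradiated and unirradiated cells by the interaction term in edgeR's quasi-likelihood test, which called 289 genes. Terms above 0 among the named genes were 1.05 for PER1, 0.81 for ISM1, 0.67 for TEPSIN, 0.67 for PDE7B, 0.67 for OSBP2, 0.63 for EGFL7, 0.62 for ABTB1, 0.62 for TIMP3, 0.62 for ADGRG1, 0.61 for DENND3, 0.60 for BTBD11 and 0.60 for WFS1. Smaller terms were 0.59 for SMOX, 0.54 for NLGN2, 0.53 for PLK2, 0.39 for TGFA, 0.34 for PCNA, 0.32 for GDF15, 0.28 for LMNA and 0.25 for CDKN1A.

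Terms below 0 were -1.52 for APOL3, -1.37 for TNFRSF14, -1.03 for TRIM22, -0.91 for UBE2L6, -0.89 for IRF9, -0.87 for C1S, -0.85 for CASP1, -0.79 for SLC7A11, -0.78 for TRANK1 and -0.65 for TRIM21. Those closer to 0 were -0.58 for NSUN6, -0.57 for F3, -0.56 for PDP1, -0.48 for RND3, -0.45 for MET and -0.36 for B2M. With 3 libraries per group, no single library was tested as an outlier.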

How the results depend on the processing

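All 289 called genes kept their direction in each alternative that gave them a value. With 1 library left out, calls ranged from 161 (without radiation replicate 2) to 332 (without untreated replicate 2), with 91 to 194 above and 70 to 138 below the product, 0 to 7 above by at least 2-fold and 3 to 6 below by at least 2-fold. DESeq2 called 136 genes (70 above, 66 below, 1 above by at least 2-fold), 134 of them among the 289. A mean of at least 5 CPM left 1 gene above by at least 2-fold, since fewer genes were tested. Where a count moved in any other setting, the cause was not tested. On the linear scale, 116 of the 289 lay below the sum, against 121 below the product.

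With the replicate number as a block, 276 genes were called, 273 shared. Numbers do not pair the libraries: correlations of same-numbered deviations ran from -0.0711 to 0.0537 over 18 pairs, and 0 of 12 libraries correlated best with its own number. Of 82 named genes called, 44 kept the call in all 18 settings and 29 lost it with DESeq2. Library totals without TMM called 310 genes.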

Other observations

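In the 5 interferon lists, 19 members were called below the product in edgeR, 19 with DESeq2 and 17 in edgeR with the replicate number as a block, and in 4 of the 5 lists the count differed between DESeq2 and edgeR by 1 gene, in either direction. Of the 289 called genes, 41 changed in opposite directions, either with IFNγ without and with radiation or with radiation without and with IFNγ.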
